A study of Mus musculus with 32 samples.

Results

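The genes that make a cell endothelial were examined in cultured mouse lung ECs after silencing of the DNA methyltransferase Dnmt1 and exposure to inflammatory cytokines. The set held 42 genes, chosen by symbol from the 54429 gene symbols of the merged count table, and all 42 were found there. It covered 11 junction and surface molecules, 8 receptors with an endothelial phosphatase, 2 secreted ligands, 12 transcription factors, 5 lung capillary and fenestral markers and 4 lymphatic markers. The selection rule is by gene symbol and uses no measured value, but the members were chosen with earlier results of these data known. Of the 42 genes, 40 had enough counts to be tested, and Aplnr, the receptor for apelin, and Car4, a carbonic anhydrase of lung capillary ECs, did not.

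Blood vessel ECs are held together by adherens junction proteins such as VE-cadherin and tight junction proteins such as claudin-5. ETS and SOXF transcription factors maintain the program of vascular receptors, and VEGF and angiopoietin receptors on the cell surface control growth and quiescence. Lung capillaries add genes of their own, such as the water channel Aqp1, and inflammatory cytokines are known to lower junction molecules while inducing antigen-presenting and adhesion molecules.

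The cells were the Veravec line, given by the labels as lung endothelial cells. Cells were transfected repeatedly with lipid and either siRNA targeting Dnmt1 (si-dnmt) or its control (si-control), and then received no cytokine, TNF (TNFα, 10 ng/mL), IFN (IFNγ, 1000 U/mL) or TNF + IFN for 16 h. The labels give the doses for the single cytokines and none of their own for the combination. Each of the 8 groups held 4 libraries, 32 in all, which the study calls biological replicates, and p-values measure the spread among these. The line was the only cell source, so the values describe cells in culture under 1 pair of siRNA reagents.

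Total counts ran from 17362546 to 33500030 per library, and the 42 genes took between 0.749% and 2.30% of them. The mitochondrial share of counts moved with the groups. It ran from 4.43% to 5.77% in si-control, 3.90% to 4.51% with TNF, 3.25% to 4.89% with IFN and 2.73% to 3.65% with TNF + IFN, and in si-dnmt from 3.27% to 4.03%, 2.68% to 3.38%, 2.40% to 3.24% and 2.13% to 2.64% in the same order, and its part in the results was not tested. Dnmt1 lay lower in every si-dnmt library than in every si-control library, with edgeR log2 fold changes from −4.08 to −3.76 over the 4 cytokine states. Within each group, replicates 1 and 2 differed from replicates 3 and 4 in many genes of the set, and the sources used here do not say what separates them. For several genes the fold change inside either set is therefore printed too. In bulk samples, fewer cells of a type and less RNA per cell cannot be told apart.

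Levels below are CPM, a gene's counts relative to the library total after scaling with TMM factors. A gene was called at a Benjamini-Hochberg adjusted p under 0.05 in edgeR's quasi-likelihood test over 15254 genes, and log2 fold changes are given ± SE from that fit. The blocked fit adds the replicate number as a term. A gene is said to hold within 2-fold where the 95% interval of its log2 fold change lay inside −1 to 1.

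Divided by exon length, the si-control libraries placed Cdh5, which encodes VE-cadherin, highest of the set at 483 CPM per kb. The ligand Angpt2, which antagonises Tie2, followed at 312 CPM per kb, the TGF-β co-receptor Eng at 294, the fenestral diaphragm protein Plvap at 266 and the junction molecule Pecam1 at 261. Cdh5, Eng and Pecam1 were thus among the most abundant of the set. Other pan-endothelial genes lay lower, among them the receptors Kdr at 37.4 CPM per kb, Tek at 19.2 and Flt1 at 16.6. The set was chosen for endothelial identity, so ranks within it do not test the cell type label. Toward the low end of the set, the tight junction gene Cldn5 measured 13.4 CPM per kb, the arterial factor Sox17 2.29 and the butyrophilin-like capillary gene Btnl9 0.488. The lymphatic master factor Prox1 reached only 0.130 CPM per kb. Car4 had 0 counts in all 32 libraries, and Aplnr did not exceed 0.215 CPM in any library. A count of 0 in a single library allows up to 3 counts, and 0 in all 32 allows fewer per library. Of the lung capillary and fenestral markers, Aqp1 (84.8 CPM per kb), Ly6c1 (55.5) and Plvap were thus present, while Btnl9 was low and Car4 absent at this depth. Further lung capillary genes read below, Cd36, Tmem100, Glp1r and Fibin, also lay at or near 0. A lung capillary identity was therefore not established by these markers.

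The lymphatic markers were not all low. Lyve1, the hyaluronan receptor of lymphatic and some blood ECs, stood at 149 CPM per kb, and Flt4, the receptor for VEGF-C, at 30.6. Mmrn1, a multimerin of lymphatic ECs and platelets, measured 178, 266, 18.2 and 24.5 CPM in the 4 si-control replicates, so that replicates 1 and 2 lay far above replicates 3 and 4. Angpt2 was split the same way at 1532, 1967, 510.4 and 595 CPM, and Prox1 at 1.64, 2.60, 0.0879 and 0.0449 CPM. Other members were even across the sets, among them Clec14a, a C-type lectin of angiogenic vessels, at 264, 259.7, 254 and 269.7 CPM and Aqp1 at 225, 234, 213 and 219 CPM.

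Promoters are printed for 4 members that the comparisons turn on: Aqp1, whose fall was the largest, Ly6c1, which IFN raised, Eng, which TNF lowered and Dnmt1 silencing raised under TNF, and Tek, which TNF + IFN lowered. Each run is the 250 bases before the RefSeq start on GRCm38.p6, written 5′ to 3′ on the gene's strand, in a window free of annotated exons. Capitals mark the ETS core GGAAG or its reverse complement CTTCC. The intervals are chr6:55336049-55336298 (plus strand) for Aqp1, chr15:75048838-75049087 (minus strand) for Ly6c1, chr2:32646345-32646594 (plus strand) for Eng and chr4:94739039-94739288 (plus strand) for Tek.
Aqp1: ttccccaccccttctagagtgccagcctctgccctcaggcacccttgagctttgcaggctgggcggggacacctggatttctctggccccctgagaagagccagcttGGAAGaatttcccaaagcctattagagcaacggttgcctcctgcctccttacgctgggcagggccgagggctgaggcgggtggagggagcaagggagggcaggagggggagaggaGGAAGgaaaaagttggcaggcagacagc
Ly6c1: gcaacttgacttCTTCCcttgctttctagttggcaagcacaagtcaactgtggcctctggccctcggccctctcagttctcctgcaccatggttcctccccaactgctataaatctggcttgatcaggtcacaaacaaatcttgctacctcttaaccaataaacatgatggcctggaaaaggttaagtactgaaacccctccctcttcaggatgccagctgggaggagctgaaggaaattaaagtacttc
Eng: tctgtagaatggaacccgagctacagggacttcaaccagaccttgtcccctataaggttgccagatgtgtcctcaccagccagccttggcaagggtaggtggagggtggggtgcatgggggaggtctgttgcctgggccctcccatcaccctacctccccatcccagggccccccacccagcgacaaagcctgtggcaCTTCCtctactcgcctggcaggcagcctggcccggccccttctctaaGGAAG
Tek: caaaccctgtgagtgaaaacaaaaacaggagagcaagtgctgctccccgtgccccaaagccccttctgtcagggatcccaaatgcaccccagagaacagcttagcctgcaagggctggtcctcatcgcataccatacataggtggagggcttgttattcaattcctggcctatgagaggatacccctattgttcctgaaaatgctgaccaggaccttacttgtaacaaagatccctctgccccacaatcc
RefSeq promoter entries matched 25 of the 42 members, and 10 of these 25 windows hold bases of exons annotated in GENCODE M21. The ETS core occurred on either strand in 19 of these 25 windows and in 63.7% of the windows of 27025 genes. The GAS motif TTCNNNGAA occurred in 0 of the 25 and in 7.14% of all windows. The ISRE motif, GAAA and GAAA parted by 2 bases, occurred in 1 of the 25, that of Mmrn1, and in 3.05% of all windows, and the NF-κB motif, GGG and TTTCC parted by 2 bases, in 0 of the 25 and in 1.41%. At least 10 CG pairs stood in 11 of the 25 windows and in 38.2% of all windows, with 5 in Aqp1, 1 in Ly6c1, 4 in Eng and 2 in Tek. A match is only a description of the letters in these windows.

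The first question was what silencing Dnmt1 alone did to the identity program. By their interval, 21 of 40 members held within 2-fold, beside 68.1% of all genes. Kdr, the main VEGF receptor of blood ECs, rose, and Aqp1, Btnl9 and the ETS factor Ets1 fell. These are 1 member called higher and 3 lower of 40 tested, beside 9.58% of all genes called higher and 8.88% lower. In the blocked fit, 1 member was higher and 22 were lower, beside 16.6% higher and 15.8% lower of all genes. The median log2 fold change of the members was −0.32, and 34 of 40 members lay below 0. Over all genes tested, the median lay between −0.01 and 0.01 in each of the 10 contrasts between 2 groups.

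Cdh5 measured 2169, 2880, 1508 and 1557 CPM in si-control and 2723, 2609, 1604 and 1536 CPM in si-dnmt, and the ranges overlapped. Its log2 fold change was 0.06 ± 0.23 (95% interval −0.41 to 0.53). Pecam1 measured 1659, 2166, 1288 and 1385 CPM against 1829, 1669, 1300 and 1298 CPM, with a log2 fold change of −0.09 ± 0.17 (95% interval −0.44 to 0.25). Both defining junction genes thus held within 2-fold under silencing alone.

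Kdr moved the other way from most of the set. It measured 327, 344, 334 and 348 CPM in si-control and 526, 485, 548 and 505 CPM in si-dnmt, with every si-dnmt library above every si-control library. The log2 fold change was 0.61 ± 0.14 (edgeR adjusted p = 0.00277), and it was 0.60 in replicates 1 and 2 and 0.62 in replicates 3 and 4. The companion VEGF receptor Flt1, a decoy for VEGF-A, had a log2 fold change of −0.02 ± 0.37 and was not called.

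The capillary markers held the largest differences. Aqp1 measured 225, 234, 213 and 219 CPM in si-control and 56.7, 52.9, 11.2 and 19.8 CPM in si-dnmt, and the groups did not overlap. The log2 fold change was −2.67 ± 0.45 (edgeR adjusted p = 0.000116), a 6.35-fold lower level, and it was −2.06 in replicates 1 and 2 and −3.80 in replicates 3 and 4. Btnl9, low throughout, measured 3.85, 5.25, 1.23 and 1.48 CPM against 0.623, 1.03, 0.341 and 0.313 CPM (−2.36 ± 0.59, edgeR adjusted p = 0.00481). Every si-dnmt library lay below every si-control library for Btnl9 too. Ly6c1, a surface antigen of capillary ECs and leukocytes, measured 89.2, 104, 89.9 and 89.5 CPM against 67.8, 49.7, 35.3 and 48.9 CPM, also without overlap, with a log2 fold change of −0.89 ± 0.32 that missed the threshold (edgeR adjusted p = 0.0540) and passed it in the blocked fit (edgeR adjusted p = 0.000240). Plvap also missed the threshold and passed it with the block (−0.87 ± 0.37, edgeR adjusted p = 0.103, and 8.64e-07 with the block).

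Among the transcription factors, Ets1 was the only one called. It measured 208, 237, 174 and 175 CPM in si-control and 134, 123, 80.3 and 73.1 CPM in si-dnmt, without overlap (−0.95 ± 0.18, edgeR adjusted p = 0.000411). Its ETS relatives Erg (−0.19 ± 0.21) and Fli1 (−0.56 ± 0.33), which maintain vascular gene expression, were not called, although Fli1 was lower in the blocked fit (edgeR adjusted p = 0.000210). Of the SOXF factors, Sox7 had a log2 fold change of −0.01 ± 0.19, Sox17 of −0.10 ± 0.54 and Sox18 of −0.75 ± 0.41, and only Sox18 was lower with the block (edgeR adjusted p = 0.00752). Gata2 (0.11 ± 0.17) and Tal1 (0.09 ± 0.08), factors shared with blood progenitors, were not called in either fit.

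**Figure D1:**
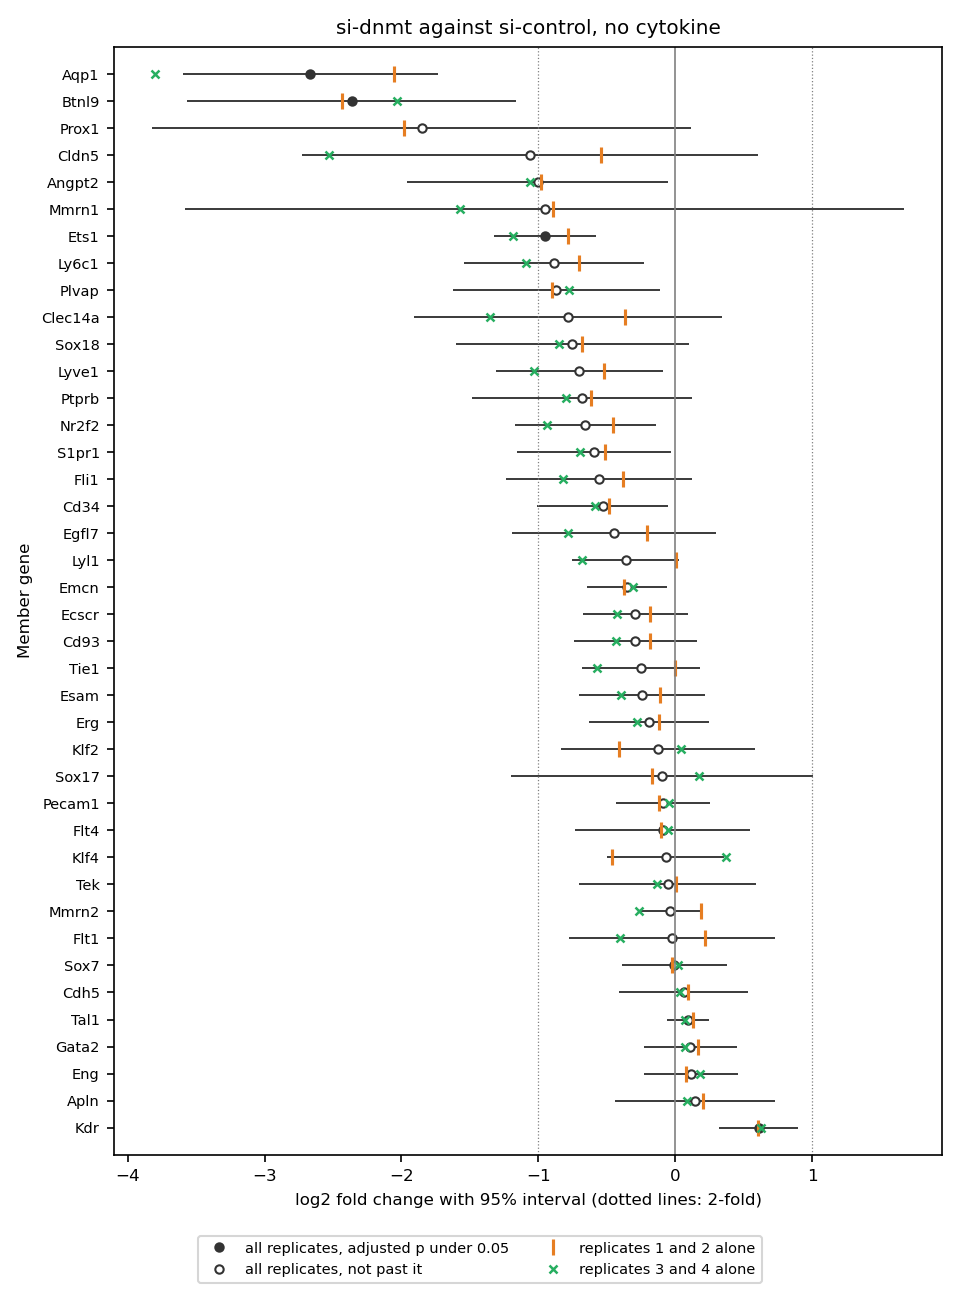
Log2 fold change of each tested member with si-dnmt against si-control without cytokine (x axis, log2 scale) against gene (y axis), with bars for the 95% interval, filled points for an adjusted p under 0.05, and marks for the fits of replicates 1 and 2 and of replicates 3 and 4 alone. Aqp1 at −2.67 and Btnl9 at −2.36 lie farthest left and Kdr at 0.61 farthest right, while the intervals of 21 members stay between the dotted 2-fold lines.

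Under TNF, the silencing contrast was led by Eng, which rose, and by Aqp1, Nr2f2, S1pr1, Emcn and Ets1, which fell. This made 1 member higher (10.4% of all genes) and 5 lower (9.59% of all genes), and in the blocked fit 1 higher and 16 lower, beside 17.2% and 16.2% of all genes. The median of the members was −0.33, and 20 of 40 held within 2-fold, beside 67.3% of all genes. Eng measured 479.6, 589, 546 and 569 CPM in si-control + TNF and 855, 875, 799.9 and 934 CPM in si-dnmt + TNF, with no overlap (0.67 ± 0.17, edgeR adjusted p = 0.00558). The Eng exons share 61 bases with Fpgs on the other strand, and the strand setting of the counting is not given in the sources used here.

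The genes lowered by silencing under TNF came from different roles. Nr2f2, the venous identity factor COUP-TFII, measured 82.8, 84.7, 62.6 and 54.8 CPM against 55.4, 45.9, 23.5 and 24.7 CPM. Its log2 fold change was −0.93 ± 0.25 (edgeR adjusted p = 0.00959), and the adjusted p became 0.0501 (log2 fold change −0.76) without si-dnmt + TNF replicate 3. Emcn, an endomucin of venous and capillary surfaces, measured 637, 814, 743 and 754 CPM against 542, 543, 391 and 408 CPM (−0.65 ± 0.14, edgeR adjusted p = 0.00168). For both Nr2f2 and Emcn in this state, each si-dnmt library lay below its same-numbered si-control library, and for Emcn the groups did not overlap. S1pr1, the sphingosine 1-phosphate receptor that tightens junctions, measured 657, 704, 478 and 453 CPM against 435, 441, 218 and 225 CPM (−0.80 ± 0.28, edgeR adjusted p = 0.0398). The S1pr1 call was lost without any 1 of si-control + TNF replicates 1 and 2 and si-dnmt + TNF replicates 3 and 4 (log2 fold change −0.73 to −0.64, edgeR adjusted p 0.0973 to 0.147). Aqp1 measured 10.4, 10.8, 3.59 and 3.71 CPM against 1.65, 1.31, 0.461 and 0.617 CPM (−2.80 ± 0.56, edgeR adjusted p = 0.000594), and Ets1 223, 242, 159 and 156 CPM against 144, 142, 103 and 112 CPM (−0.64 ± 0.18, edgeR adjusted p = 0.0120). Neither Aqp1 nor Ets1 overlapped between the siRNAs under TNF. Kdr, at 318, 378, 246 and 231 CPM against 408, 381, 244 and 266 CPM, was not called there (0.15 ± 0.14).

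Under IFN, silencing again raised Kdr and lowered Aqp1, Ets1 and, here, Ly6c1. The counts were 1 member higher (10.8% of all genes) and 3 lower (9.54%), and with the block 2 higher and 14 lower, beside 17.9% and 16.6%. The second member higher with the block was Eng, as a log2 fold change of 0.35 (edgeR adjusted p = 0.0240). The median was −0.23, and 21 of 40 members held within 2-fold, beside 67.0% of all genes. Kdr measured 275, 273, 252 and 247 CPM in si-control + IFN and 431, 386, 483 and 427 CPM in si-dnmt + IFN (0.72 ± 0.14, edgeR adjusted p = 0.000546). Ly6c1 measured 995, 1184, 826 and 883 CPM against 497, 647, 352 and 469 CPM (−0.98 ± 0.32, edgeR adjusted p = 0.0280). Neither gene overlapped between the siRNAs in this state. The Ly6c1 call was lost without any 1 of si-control + IFN replicate 2 and si-dnmt + IFN replicates 1, 3 and 4 (log2 fold change −0.99 to −0.85, edgeR adjusted p 0.0568 to 0.0996). Ly6c1 has a near-identical paralog, Ly6c2, and the counting could split reads between them, so its values are uncertain. Aqp1 measured 33.9, 60.7, 20.8 and 23.6 CPM against 7.67, 8.32, 1.93 and 3.66 CPM (−2.70 ± 0.47, edgeR adjusted p = 0.000157). Ets1 measured 184, 194, 157 and 150.1 CPM against 112, 123, 79.9 and 77.9 CPM (−0.81 ± 0.18, edgeR adjusted p = 0.00194).

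Under TNF + IFN, silencing left Tal1 higher and Nr2f2 and Emcn lower. These were 1 higher (8.97% of all genes) and 2 lower (8.72%), and with the block 2 higher and 13 lower, beside 15.2% and 15.6%. The second member higher with the block was Eng (0.37 ± 0.17 without it, 0.38 with it, edgeR adjusted p = 0.0173). The median was −0.24, and 23 of 40 members held within 2-fold, beside 67.4% of all genes. Nr2f2 measured 59.7, 66.2, 69.5 and 58.5 CPM in si-control + TNF + IFN and 25.5, 29.4, 16.7 and 17.2 CPM in si-dnmt + TNF + IFN (−1.52 ± 0.26, edgeR adjusted p = 0.000129). This was a 2.86-fold lower level, without overlap, at −1.20 in replicates 1 and 2 and −1.91 in replicates 3 and 4. The Nr2f2 exons share 643 bases with the opposite-strand transcript B130024G19Rik, which reached at most 71 counts in a library. Emcn measured 708, 832, 729 and 722 CPM against 515, 578, 366 and 368 CPM (−0.71 ± 0.14, edgeR adjusted p = 0.000726), again without overlap. Tal1, a helix-loop-helix factor, differed little in size, at 64.0, 57.6, 58.1 and 58.1 CPM against 66.7, 71.9, 67.5 and 70.6 CPM (0.22 ± 0.08, edgeR adjusted p = 0.0440). The Tal1 call was lost without any 1 of 7 libraries, namely si-control + TNF + IFN replicates 2, 3 and 4 and all 4 replicates of si-dnmt + TNF + IFN (log2 fold change 0.20 to 0.23, edgeR adjusted p 0.0528 to 0.105), and also with no filter on low counts. Aqp1 was near the floor in both groups here, with 28 counts in si-control + TNF + IFN and 7 in si-dnmt + TNF + IFN over 4 libraries, a ratio of 3.75 (exact 95% interval 1.60 to 10.2, counting error only).

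Over the 4 states, 10 of 40 members were called in at least 1 silencing contrast and 30 in none. The share of all genes called in at least 1 of them was not computed. Each contrast called 8.97% to 10.8% of all genes higher and 8.72% to 9.59% lower. By log2 fold change, 23 members lay below 0 in all 4 states and 4 above. Cdh5 and Pecam1 were called in none of the 4, with log2 fold changes of −0.07 ± 0.23 and −0.12 ± 0.17 under TNF, 0.05 ± 0.23 and −0.01 ± 0.17 under IFN, and −0.15 ± 0.23 and −0.18 ± 0.17 under TNF + IFN. Members lower in all 4 states with the block were Nr2f2, Cd34, a sialomucin of capillary ECs, Egfl7, an EC matrix protein whose gene hosts miR-126, Ptprb, the phosphatase VE-PTP, S1pr1, Plvap, Lyve1 and Mmrn1. For Ptprb, for example, the log2 fold change without cytokine was −0.68 ± 0.39 without the block and −0.71 with it (edgeR adjusted p = 0.250 and 3.64e-07), and it was −0.61 in replicates 1 and 2 and −0.80 in replicates 3 and 4. Nr2f2 and S1pr1 were also called without the block in the states given above.

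**Figure D2:**
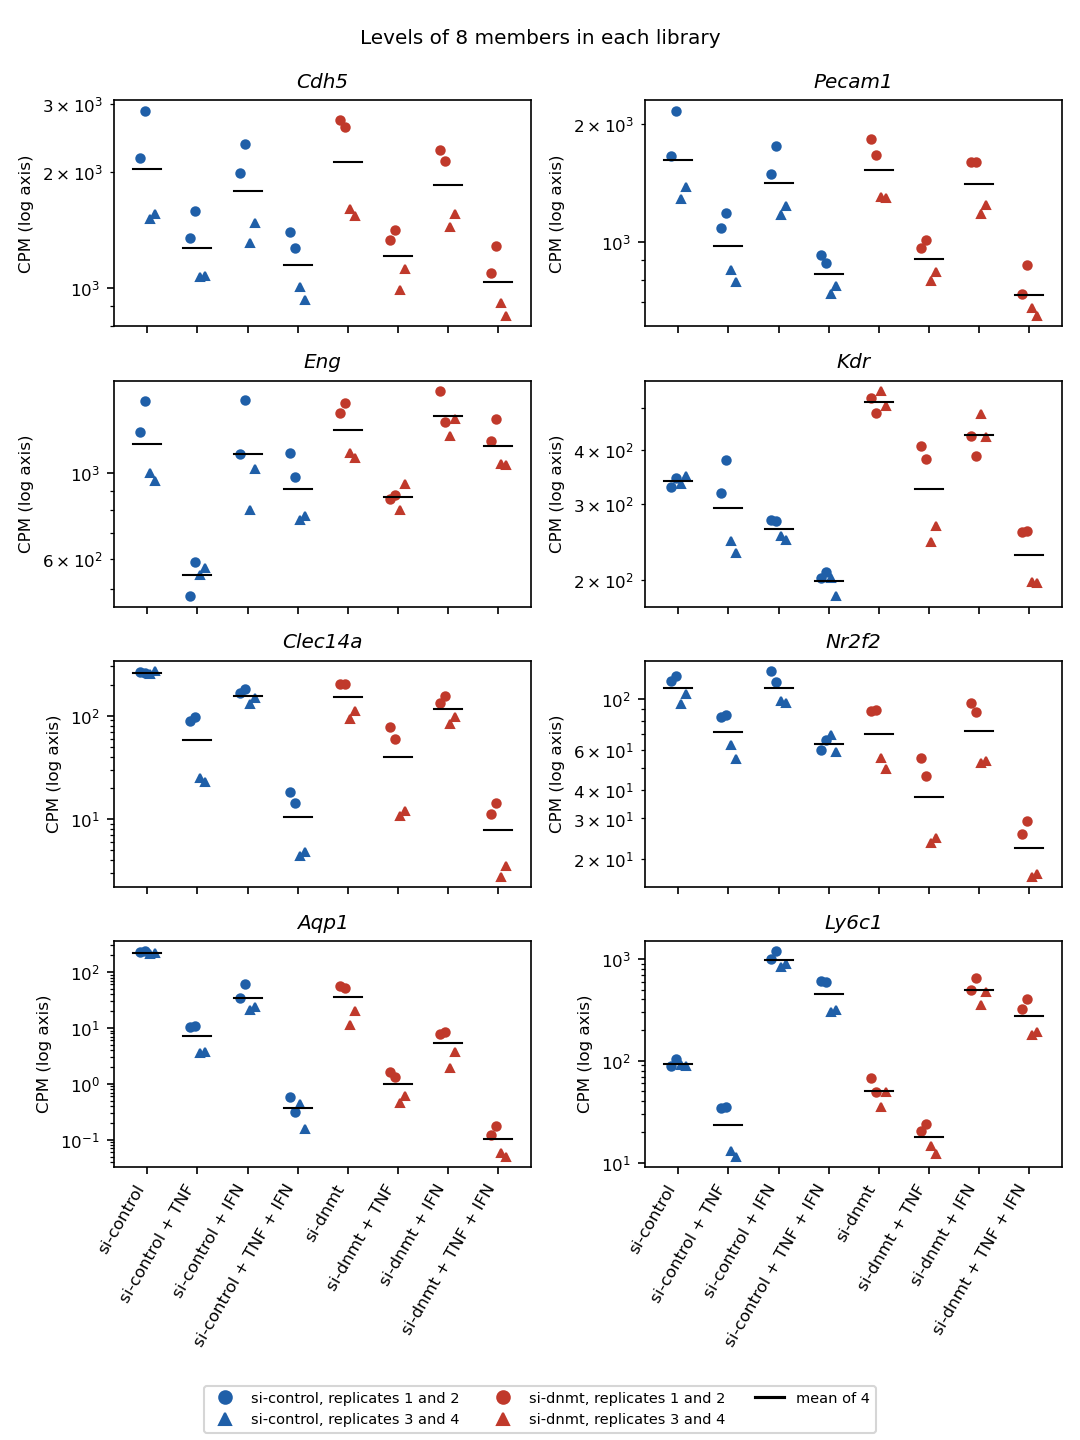
Level of 8 members in each of the 32 libraries in CPM on a log axis (y) by group (x), with circles for replicates 1 and 2, triangles for replicates 3 and 4, blue for si-control, red for si-dnmt and a line for the mean of 4. Cdh5 and Pecam1 overlap between the siRNAs in every state, Kdr is higher and Aqp1 lower in si-dnmt without cytokine, and Ly6c1 is highest in the groups given IFN, alone or with TNF.

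The second question was what the cytokines did to these genes. All contrasts under 1 siRNA share the 4 libraries without cytokine, so agreement between them is not independent. TNF alone lowered a broad part of the set. In si-control, 0 members were called higher (16.1% of all genes; 0 at an unadjusted p under 0.05 and 0 by DESeq2) and 18 lower (14.6% of all genes). In si-dnmt, 0 were higher (11.5%; again 0 unadjusted and 0 by DESeq2) and 15 lower (9.54%). With the block the counts were 0 and 31 in si-control (22% and 21.4% of all genes) and 1 and 29 in si-dnmt (17.8% and 16.5%), where the member higher was Ets1. The median of the members was −0.66 under both siRNAs.

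By role, TNF lowered 4 of 11 junction and surface molecules in si-control and 4 of 11 in si-dnmt. Cdh5 fell from 2169, 2880, 1508 and 1557 CPM to 1347, 1583, 1071 and 1078 CPM in si-control (−0.68 ± 0.23, edgeR adjusted p = 0.0267) and from 2723, 2609, 1604 and 1536 CPM to 1329, 1412, 991 and 1121 CPM in si-dnmt (−0.80 ± 0.23, edgeR adjusted p = 0.0134). The groups overlapped in si-control and not in si-dnmt. The si-control call was lost without any 1 of si-control replicates 1 and 2 and si-control + TNF replicates 3 and 4 (log2 fold change −0.64 to −0.46, edgeR adjusted p 0.0593 to 0.149), and the si-dnmt call without si-dnmt replicate 1 or 2 (−0.69 to −0.66, 0.0554 to 0.0658). Pecam1 fell by a like amount (−0.73 ± 0.17, edgeR adjusted p = 0.00141, and −0.76 ± 0.17, edgeR adjusted p = 0.00168). Clec14a fell furthest of this role, to 89.7, 96.4, 25.2 and 23.0 CPM from 264, 259.7, 254 and 269.7 CPM in si-control (−2.16 ± 0.57, edgeR adjusted p = 0.00470). In si-dnmt it fell from 201, 203, 93.7 and 111 CPM to 78.6, 59.0, 10.7 and 11.98 CPM (−1.92 ± 0.57, edgeR adjusted p = 0.0158), a call lost without si-dnmt + TNF replicate 3 or 4 (−1.62 to −1.61, 0.0527 to 0.0562). The fall of Clec14a was larger in replicates 3 and 4 (−3.44) than in 1 and 2 (−1.48), with no overlap between TNF and no cytokine under either siRNA.

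Of the receptors with the phosphatase, TNF lowered 3 of 7 tested in si-control and 4 of 7 in si-dnmt. Eng fell from 1276, 1535, 996 and 954 CPM to 479.6, 589, 546 and 569 CPM in si-control (−1.12 ± 0.17, edgeR adjusted p = 1.04e-05) and from 1424, 1517, 1127 and 1091 CPM to 855, 875, 799.9 and 934 CPM in si-dnmt (−0.57 ± 0.17, edgeR adjusted p = 0.0153). Ptprb (−1.42 ± 0.40 and −1.11 ± 0.40) and Tie1, an orphan partner of Tie2 (−0.83 ± 0.21 and −0.75 ± 0.21), fell under both siRNAs. Kdr was called in si-dnmt (−0.67 ± 0.14, edgeR adjusted p = 0.00107) and not in si-control (−0.21 ± 0.14, edgeR adjusted p = 0.287), but the interaction was not called. Tek, which encodes Tie2, was not called under either siRNA (−0.25 ± 0.32 and −0.76 ± 0.32), and was lower under both with the block (edgeR adjusted p = 0.0287 and 2.15e-05).

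Among transcription factors TNF lowered 6 of 12 in si-control and 5 of 12 in si-dnmt. Sox17 fell to 6.06, 4.92, 1.56 and 1.53 CPM from 18.0, 16.7, 4.75 and 4.26 CPM in si-control (−1.63 ± 0.56, edgeR adjusted p = 0.0282) and to 2.15, 2.30, 2.03 and 1.29 CPM from 16.5, 14.2, 4.37 and 5.80 CPM in si-dnmt (−2.38 ± 0.59, edgeR adjusted p = 0.00420). In si-control, replicates 1 and 2 with TNF lay above replicates 3 and 4 without cytokine, while within each replicate set every TNF library was lower. In si-dnmt the groups did not overlap. Fli1 (−1.01 ± 0.34 and −0.96 ± 0.34), the helix-loop-helix gene Lyl1 (−0.72 ± 0.19 and −0.60 ± 0.19) and Tal1 (−0.31 ± 0.08 and −0.27 ± 0.08) also fell under both siRNAs. Sox18 (−1.19 ± 0.42) and Gata2 (−0.45 ± 0.17), like the ligand Angpt2 (−1.69 ± 0.47) and the matrix gene Mmrn2 (−0.29 ± 0.11), were called lower in si-control, and Nr2f2 (−0.91 ± 0.25) and Emcn (−0.45 ± 0.14) in si-dnmt. Ets1 was not called (−0.02 ± 0.18 and 0.29 ± 0.18), but was higher in si-dnmt with the block (edgeR adjusted p = 0.0112). Erg was called under neither siRNA (−0.32 ± 0.21 and −0.26 ± 0.21) and under both with the block (edgeR adjusted p = 0.00127 and 0.00969). The block also added Nr2f2 in si-control (edgeR adjusted p = 0.000264) and Sox18, Gata2 and Angpt2 in si-dnmt (edgeR adjusted p = 0.000682, 0.000560 and 0.0129) as lower.

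All 4 capillary and fenestral markers tested fell with TNF in si-control, and 2 of 4 in si-dnmt. Aqp1 fell from 225, 234, 213 and 219 CPM to 10.4, 10.8, 3.59 and 3.71 CPM in si-control, a 31.3-fold lower level (−4.97 ± 0.51, edgeR adjusted p = 2.00e-08). From the lower start in si-dnmt, at 56.7, 52.9, 11.2 and 19.8 CPM, it fell to 1.65, 1.31, 0.461 and 0.617 CPM, a 34.3-fold lower level (−5.10 ± 0.56, edgeR adjusted p = 1.37e-07). Every library with TNF lay below every library without it. Ly6c1 fell from 89.2, 104, 89.9 and 89.5 CPM to 34.04, 34.9, 13.0 and 11.4 CPM in si-control (−1.998 ± 0.33, edgeR adjusted p = 3.69e-05) and to 20.6, 24.1, 14.4 and 12.2 CPM in si-dnmt (−1.50 ± 0.33, edgeR adjusted p = 0.00156). Plvap (−1.03 ± 0.37) and Btnl9 (−1.47 ± 0.56) were called in si-control and not in si-dnmt (−0.66 ± 0.37 and −0.87 ± 0.67), and their interaction was not called. With the block Plvap was lower in si-dnmt too (edgeR adjusted p = 9.00e-05). Of the lymphatic markers, Flt4 (0.07 ± 0.31 and 0.05 ± 0.31) and Lyve1 (0.14 ± 0.30 and 0.34 ± 0.30) were not called under either siRNA.

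IFN alone called fewer members, and fewer of all genes, than TNF alone. In si-control, 1 was higher (8.56% of all genes) and 4 lower (5.92%), and in si-dnmt 1 was higher (6.66%) and 2 lower (2.35%). With the block these became 5 and 13 (12.7% and 12.7% of all genes) and 5 and 6 (10.9% and 8.04%). The 5 members higher with the block were Ly6c1, Ecscr, Lyl1, Plvap and Flt4 under both siRNAs. Members held within 2-fold in 22 of 40 cases in si-control and 23 of 40 in si-dnmt, beside 67.9% and 71.2% of all genes. The medians of the members were −0.21 and −0.06.

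Ly6c1, an interferon-responsive surface antigen, was the only member called higher with IFN in the fit without the block. It measured 995, 1184, 826 and 883 CPM in si-control + IFN against 89.2, 104, 89.9 and 89.5 CPM without cytokine, a 10.4-fold rise (3.38 ± 0.35, edgeR adjusted p = 1.65e-08). In si-dnmt it rose from 67.8, 49.7, 35.3 and 48.9 CPM to 497, 647, 352 and 469 CPM, or 9.74-fold (3.28 ± 0.35, edgeR adjusted p = 3.78e-08). The groups with and without IFN did not overlap under either siRNA. The difference between the responses was −0.10 ± 0.45 (95% interval −1.02 to 0.82) and was not called.

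Cd93, a C1q-receptor-like surface molecule, and Aqp1 fell with IFN under both siRNAs. Cd93 measured 1228, 1382, 908 and 1031 CPM without cytokine and 544, 574, 385 and 392.3 CPM with IFN in si-control (−1.26 ± 0.22, edgeR adjusted p = 0.000132), and 1191, 1088, 724 and 716 CPM and 526, 560.1, 459 and 461 CPM in si-dnmt (−0.89 ± 0.22, edgeR adjusted p = 0.00747). The groups did not overlap under either siRNA. Aqp1 fell to 33.9, 60.7, 20.8 and 23.6 CPM in si-control (−2.68 ± 0.46, edgeR adjusted p = 7.63e-05) and to 7.67, 8.32, 1.93 and 3.66 CPM in si-dnmt (−2.71 ± 0.47, edgeR adjusted p = 0.000146). Sox17 at 4.54, 6.09, 0.927 and 1.62 CPM (−1.72 ± 0.57, edgeR adjusted p = 0.0399) and Btnl9 at 1.23, 0.676, 0.491 and 0.756 CPM (−1.89 ± 0.58, edgeR adjusted p = 0.0258) were lower with IFN in si-control. The Sox17 call was lost without any 1 of si-control replicates 1 and 2 and si-control + IFN replicates 3 and 4 (log2 fold change −1.50 to −1.37, edgeR adjusted p 0.117 to 0.149). The Btnl9 call was lost without any 1 of si-control replicates 1 and 2 and si-control + IFN replicates 2, 3 and 4 (−1.87 to −1.47, 0.0581 to 0.128), and in replicates 3 and 4 alone. Cdh5 (−0.19 ± 0.23 and −0.20 ± 0.23), Pecam1 (−0.20 ± 0.17 and −0.12 ± 0.17) and Kdr (−0.37 ± 0.14 and −0.26 ± 0.14) were not called with IFN under either siRNA, and Kdr was lower in si-control with the block (edgeR adjusted p = 0.0202).

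TNF + IFN lowered members of nearly every role. In si-control, 2 were higher (23.5% of all genes) and 24 lower (21.6%), and in si-dnmt 1 was higher (21.3%) and 20 lower (18.9%). With the block the counts were 3 and 28 (28% and 27% of all genes) and 4 and 24 (26.6% and 25%), so that the totals of 31 and 28 stood beside 31 and 30 for TNF alone. The medians were −0.79 and −0.60, and 14 and 13 of 40 members held within 2-fold, beside 55.8% and 57.9% of all genes. The lower calls spread over 8 of 11 junction and surface molecules in si-control and 9 of 11 in si-dnmt, 5 of 7 receptors with the phosphatase under each siRNA, and 7 and 5 of 12 transcription factors.

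Aqp1 fell close to the counting floor. It measured 0.577, 0.312, 0.431 and 0.159 CPM in si-control + TNF + IFN, from 225, 234, 213 and 219 CPM (−9.20 ± 0.68, edgeR adjusted p = 6.81e-12). In si-dnmt + TNF + IFN it measured 0.123, 0.180, 0.0578 and 0.0494 CPM, with 7 counts in all over the 4 libraries. Its level without cytokine in si-dnmt was 330-fold higher by the ratio of summed counts (exact 95% interval 160 to 822, counting error only). TNF or IFN alone left Aqp1 well above these levels, at 7.11 ± 4.00 CPM and 34.7 ± 18.2 CPM (mean ± SD, n = 4) in si-control.

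Clec14a and Sox17 fell next furthest under both siRNAs. Clec14a measured 18.2, 14.4, 4.38 and 4.82 CPM in si-control (−4.64 ± 0.65, edgeR adjusted p = 9.67e-07) and 11.1, 14.2, 2.78 and 3.56 CPM in si-dnmt (−4.28 ± 0.64, edgeR adjusted p = 3.73e-06). Sox17 measured 0.625, 0.781, 0.247 and 0.212 CPM (−4.51 ± 0.69, edgeR adjusted p = 4.84e-06) and 0.123, 0.180, 0.463 and 0.741 CPM (−4.68 ± 0.72, edgeR adjusted p = 4.84e-06). Under each siRNA, all 4 libraries of either gene lay below all 4 without cytokine. The SOXF relative Sox18 fell with log2 fold changes of −2.91 ± 0.45 and −2.58 ± 0.45, whereas Sox7 was called in si-control (−0.64 ± 0.19) and in si-dnmt only with the block (−0.46 ± 0.19, edgeR adjusted p = 0.00111 with it).

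Cdh5 and Pecam1, called lower with TNF alone, were called lower here too, and TNF was not tested against TNF + IFN. Cdh5 measured 1394, 1267, 1005 and 929.5 CPM in si-control (−0.82 ± 0.23, edgeR adjusted p = 0.00482) and 1095, 1287, 914 and 847 CPM in si-dnmt (−1.03 ± 0.23, edgeR adjusted p = 0.000693). Pecam1 measured 925, 883, 738 and 772 CPM (−0.97 ± 0.17, edgeR adjusted p = 2.74e-05) and 736, 873, 679 and 646 CPM (−1.05 ± 0.17, edgeR adjusted p = 1.02e-05). The groups with and without TNF + IFN did not overlap for either gene, but both genes remained among the abundant members. Cldn5 fell to 4.13, 3.02, 0.555 and 0.529 CPM from 23.6, 22.3, 16.4 and 13.5 CPM in si-control (−3.17 ± 0.91, edgeR adjusted p = 0.00551). Esam (−0.85 ± 0.23 and −0.93 ± 0.23), an adhesion molecule of tight junctions, Cd34 (−0.87 ± 0.23 and −0.59 ± 0.23) and Mmrn2, a matrix ligand of Cd93 and Clec14a (−0.45 ± 0.11 and −0.57 ± 0.11), were called lower under both siRNAs. Cd93 fell as well, with log2 fold changes of −1.85 ± 0.23 and −1.53 ± 0.22.

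Among the receptors, Kdr measured 202, 208, 201 and 183 CPM in si-control (−0.77 ± 0.14, edgeR adjusted p = 6.03e-05) and 258, 259.6, 198 and 197 CPM in si-dnmt (−1.18 ± 0.14, edgeR adjusted p = 1.19e-07), each below all its libraries without cytokine. Tek fell under both siRNAs with log2 fold changes of −1.81 ± 0.33 and −1.92 ± 0.33, as did Tie1 (−1.29 ± 0.21 and −1.12 ± 0.21), Flt1 (−1.16 ± 0.37 and −1.17 ± 0.37) and Ptprb (−1.97 ± 0.41 and −1.68 ± 0.40). Eng was not called without the block, at 1125, 976, 757 and 771 CPM in si-control and 1209, 1381, 1056 and 1049 CPM in si-dnmt, overlapping the libraries without cytokine (−0.39 ± 0.17 and −0.14 ± 0.17). With the block it was lower in si-control (−0.38, edgeR adjusted p = 0.00769), where each TNF + IFN library lay below the same-numbered one without cytokine. Every Eng library with TNF alone lay below every one with TNF + IFN under the same siRNA, a contrast that was not tested. Nr2f2 measured 59.7, 66.2, 69.5 and 58.5 CPM in si-control (−0.81 ± 0.25, edgeR adjusted p = 0.0102) and 25.5, 29.4, 16.7 and 17.2 CPM in si-dnmt (−1.67 ± 0.26, edgeR adjusted p = 6.94e-06). Erg (−0.56 ± 0.22 and −0.67 ± 0.22) and Fli1 (−1.66 ± 0.34 and −1.35 ± 0.34) fell under both siRNAs. Angpt2 (−1.44 ± 0.47), Tal1 (−0.21 ± 0.08), Btnl9 (−3.33 ± 0.65) and Prox1 (−3.92 ± 1.24) were called lower in si-control, and Emcn (−0.49 ± 0.14) in si-dnmt. Prox1 had 35, 49, 2 and 1 counts in si-control and 4, 1, 0 and 0 in si-control + TNF + IFN. Its replicates 3 and 4 were thus at or near 0 in both groups. Btnl9 fell from 82, 99, 28 and 33 counts to 11, 5, 2 and 4.

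The members called higher with TNF + IFN without the block were Ly6c1 and, in si-control, Flt4. With the block Ecscr was higher too under both siRNAs, and Ets1 in si-dnmt. Ly6c1 measured 606, 593, 302 and 317 CPM in si-control (2.29 ± 0.33, edgeR adjusted p = 1.98e-06) and 319, 399.8, 181 and 190 CPM in si-dnmt (2.43 ± 0.34, edgeR adjusted p = 9.80e-07). In si-control all 4 libraries lay between those with TNF alone and those with IFN alone, and in si-dnmt they overlapped those with IFN alone. Flt4 measured 622, 568, 298 and 319 CPM in si-control, from 307, 349, 179 and 172 CPM (0.84 ± 0.31, edgeR adjusted p = 0.0292), and 0.77 ± 0.31 in si-dnmt missed the threshold (edgeR adjusted p = 0.0514) and passed it with the block (edgeR adjusted p = 1.54e-09). Its rise was present within each replicate set, at 0.88 in replicates 1 and 2 and 0.81 in replicates 3 and 4. The si-control call of Flt4 was lost without any 1 of si-control replicates 3 and 4 and si-control + TNF + IFN replicates 1 and 2 (log2 fold change 0.64 to 0.71, edgeR adjusted p 0.0949 to 0.122).

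**Figure D3:**
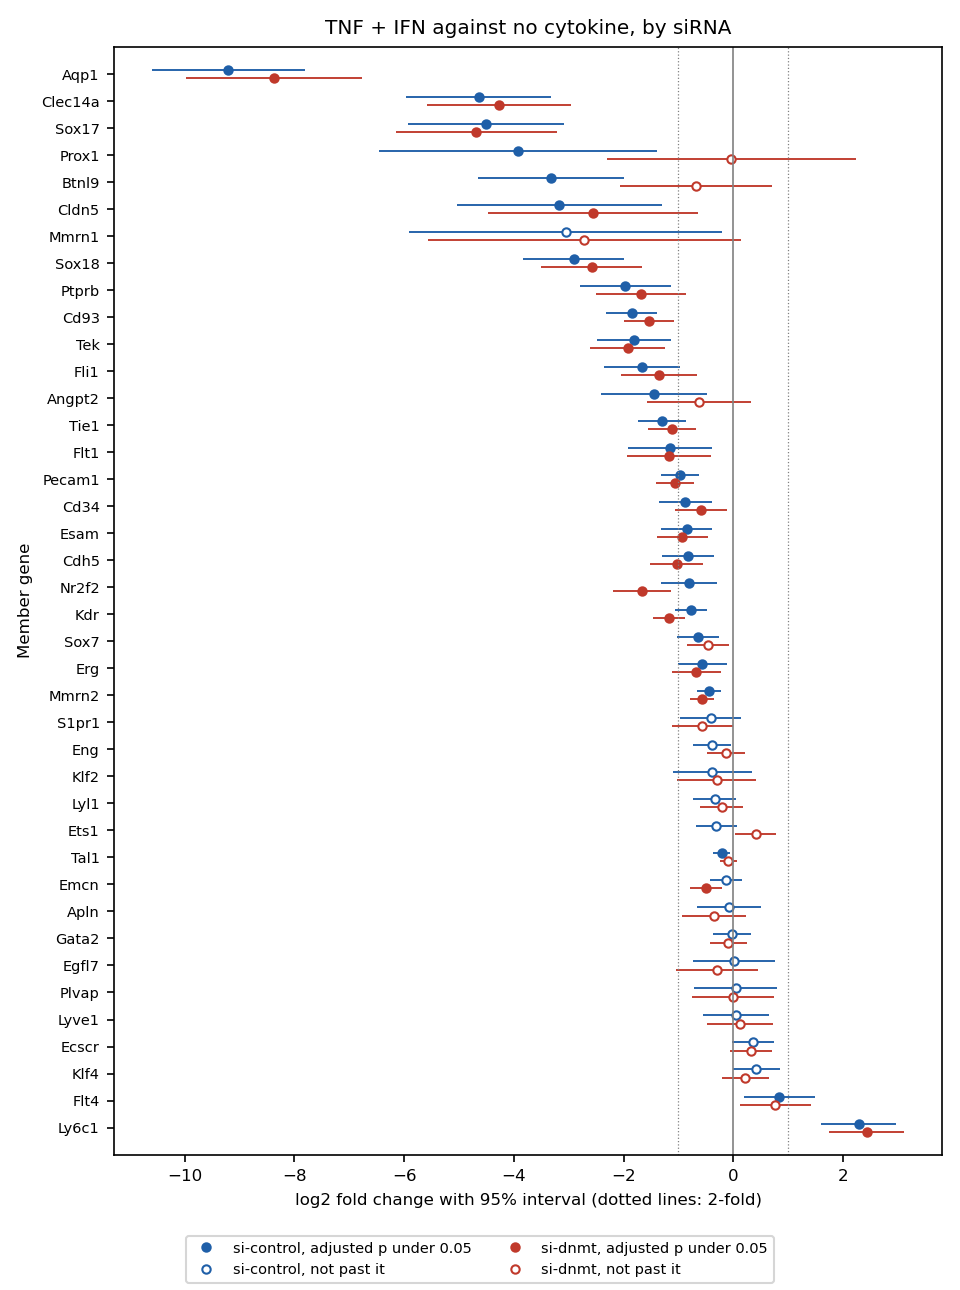
Log2 fold change of each tested member with TNF + IFN against no cytokine (x axis, log2 scale) against gene (y axis), in si-control (blue) and si-dnmt (red), with bars for the 95% interval and filled points for an adjusted p under 0.05. Aqp1 lies farthest left at −9.20 and −8.38, followed in si-control by Clec14a and Sox17, and Ly6c1 lies farthest right at 2.29 and 2.43.

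Whether silencing changed the cytokine responses was asked with the interaction of siRNA and cytokine. By edgeR, 0 members were called in either direction for TNF (0.00656% of all genes higher and 0.0262% lower), for IFN (0% and 0.0459%) and for TNF + IFN (0.157% and 0.374%). At an unadjusted p under 0.05 the counts higher and lower were 1 and 1 for TNF, 0 and 0 for IFN and 3 and 2 for TNF + IFN, and DESeq2 called 0 in all 3. The interval of the interaction lay within 2-fold for 20, 21 and 20 of 40 members, beside 63.3%, 66.0% and 61.5% of all genes. For TNF + IFN the blocked fit called Ets1 and Btnl9 higher and Nr2f2 lower, 2 and 1 members beside 1.61% and 2.57% of all genes. In the fit without the block, the interaction was 0.72 ± 0.25 for Ets1, 2.64 ± 0.95 for Btnl9 and −0.86 ± 0.36 for Nr2f2. Btnl9 had only 14, 24, 10 and 9 counts in si-dnmt and 5, 4, 6 and 10 in si-dnmt + TNF + IFN. In si-control + TNF + IFN it had 11, 5, 2 and 4, so its interaction is limited by depth. In values, Ets1 differed between the siRNAs without cytokine and much less with TNF + IFN, where it measured 155, 175, 155 and 156 CPM in si-control and 148, 144, 128 and 125 CPM in si-dnmt (−0.23 ± 0.18), and Nr2f2 differed most with TNF + IFN.

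Over all 10 contrasts between 2 groups, 33 of 40 members were called at least once and 31 in at least 1 cytokine contrast. The share of all genes called at least once was not computed. TNF + IFN in si-control alone called 23.5% of all genes higher and 21.6% lower, so these counts are not read as particular to the members. The 7 never called were Apln, the apelin ligand, Ecscr and Egfl7, EC-restricted surface and matrix genes, the shear-stress factors Klf2 and Klf4, and the lymphatic markers Lyve1 and Mmrn1. For Mmrn1 the spread between replicate sets was wide: its TNF + IFN contrast in si-control was −3.05 ± 1.39 without the block (edgeR adjusted p = 0.0750) and −3.16 with it (edgeR adjusted p = 9.20e-13). Klf2 had opposite signs in the replicate sets under TNF + IFN, at −1.36 for the silencing contrast in replicates 1 and 2 and 1.04 in replicates 3 and 4. Klf4 did so without cytokine, at −0.46 and 0.37, and Btnl9 under TNF, at −2.76 and 0.74. Apln, by contrast, held within 2-fold in all 4 silencing contrasts (log2 fold changes 0.14, 0.08, 0.30 and −0.13). Ecscr was higher with IFN in the blocked fit, at 0.49 in si-control and 0.45 in si-dnmt (edgeR adjusted p = 4.62e-06 and 2.72e-05). Lyve1 without the block had log2 fold changes between −0.70 and −0.50 in the silencing contrasts.

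**Figure D4:**
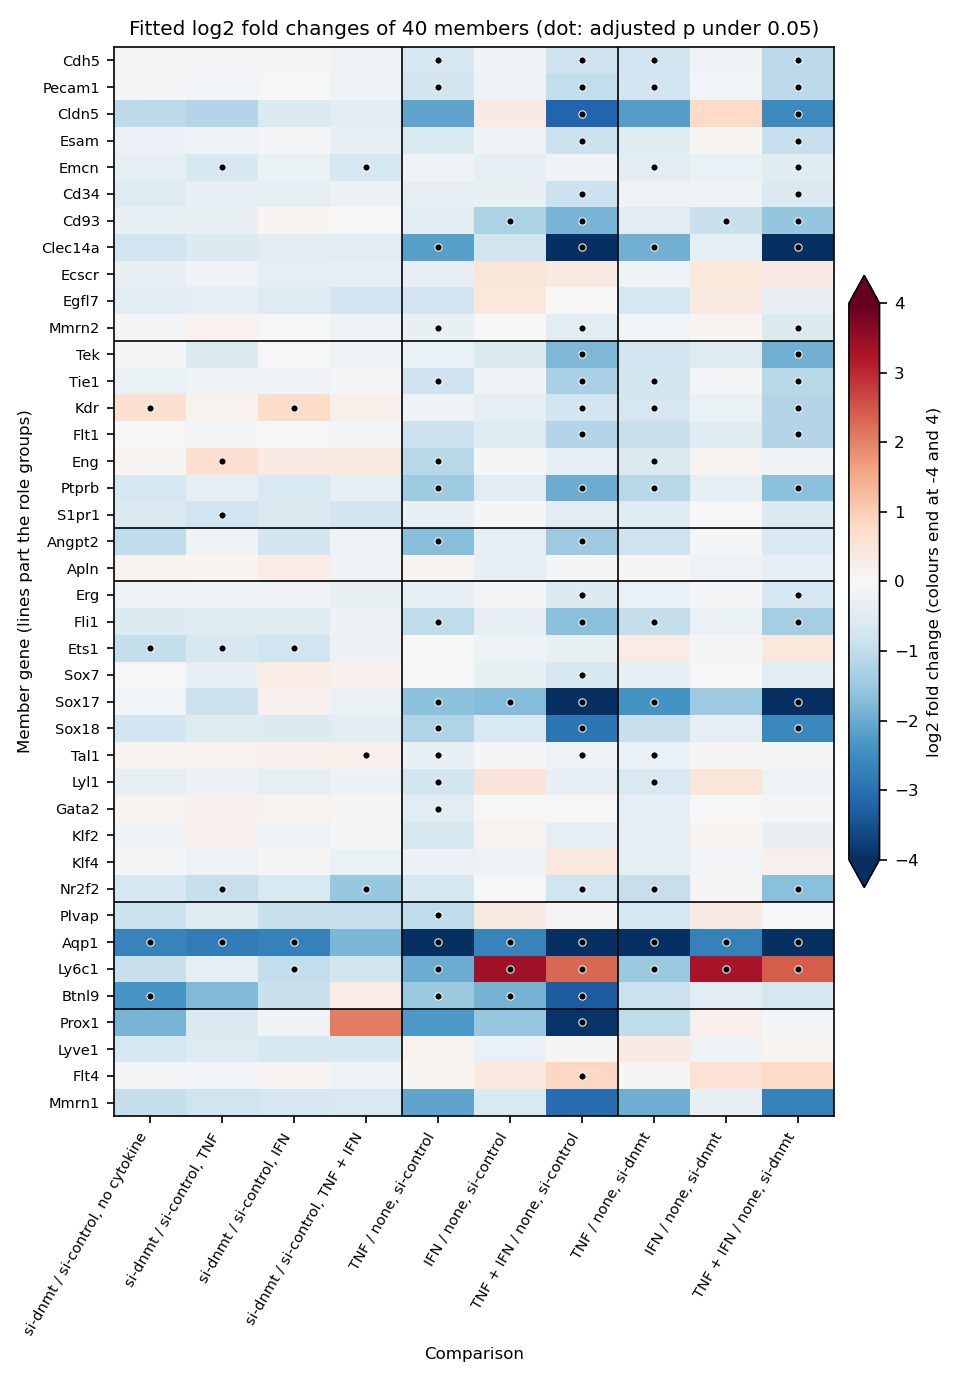
Log2 fold change (colour, ending at −4 and 4) of the 40 tested members (rows, parted by role) in the 10 contrasts between 2 groups (columns), with a dot where edgeR's adjusted p was under 0.05. The dots are sparse in the 4 silencing columns and dense in the TNF and TNF + IFN columns, and the row of Aqp1 has a dot in 9 of the 10.

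A wider list of 32 other endothelial genes was read for comparison, and all 32 were tested. It too was chosen with earlier results of these data known, so it is not an independent check. Silencing lowered 10 of these without cytokine, 8 with TNF, 7 with IFN and 5 with TNF + IFN, and raised 1 with TNF and 2 with TNF + IFN, with medians of −0.35, −0.25, −0.24 and −0.26. Of all genes, 8.88%, 9.59%, 9.54% and 8.72% were called lower in these contrasts. TNF lowered 22 of 32 in si-control (14.6% of all genes) and 20 in si-dnmt (9.54%), and raised 1 under each siRNA (16.1% and 11.5%). IFN lowered 6 and 1 (5.92% and 2.35%) and raised 2 and 1 (8.56% and 6.66%). TNF + IFN lowered 24 and 22 (21.6% and 18.9%) and raised 2 and 3 (23.5% and 21.3%), with medians of −1.10 and −1.05. The myocyte enhancer factor Mef2c was the furthest down with silencing under TNF, at 16.4 ± 4.36 CPM against 43.5 ± 7.75 (mean ± SD, n = 4, log2 fold change −1.41 ± 0.24, edgeR adjusted p = 8.35e-05). The adaptor gene She fell without cytokine (100.05 ± 18.5 CPM against 228 ± 24.2, −1.19 ± 0.18, edgeR adjusted p = 2.01e-05), and Bmx, a cytoplasmic kinase, fell under TNF (−1.39 ± 0.48, edgeR adjusted p = 0.0422). In the other direction, Ace, the angiotensin-converting enzyme of lung capillaries, was higher in si-dnmt under TNF + IFN (24.1 ± 3.43 CPM against 11.9 ± 1.03, 1.02 ± 0.25, edgeR adjusted p = 0.00372), and Procr, the protein C receptor, under TNF (0.56 ± 0.13, edgeR adjusted p = 0.00361). Ace was called lower on silencing without cytokine, and was the 1 gene of this list called higher in the TNF + IFN interaction (0.157% of all genes).

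Of 12 other lung capillary genes, 8 were tested, and Cd36, Tmem100, Glp1r and Fibin lay at or near 0. Silencing lowered the Kit ligand gene Kitl with TNF (43.8 ± 14.4 CPM against 90.1 ± 16.8, −1.04 ± 0.28, edgeR adjusted p = 0.00791) and also with TNF + IFN. With TNF + IFN the endothelin receptor Ednrb was higher (131 ± 72.7 CPM against 42.6 ± 25.3, 1.62 ± 0.42, edgeR adjusted p = 0.00729) and Prx lower (−0.61 ± 0.20, edgeR adjusted p = 0.0363). The summed level of the 12 genes overlapped between the siRNAs without cytokine, at 390.1 to 739.6 CPM in si-control and 416.5 to 518.4 CPM in si-dnmt. With TNF, IFN and TNF + IFN it ran from 175.9 to 396.8, 188.2 to 215.7 and 149.4 to 263.9 CPM in si-control. In si-dnmt the same order gave 211.1 to 496.7, 216.9 to 312.8 and 142.7 to 314.6 CPM. Ednrb was called lower with TNF and with IFN in si-control, where Kitl was higher with TNF and Prx with IFN. TNF + IFN lowered Ednrb and Gpihbp1 and raised Kitl and Prx under both siRNAs. In si-dnmt, neither cytokine alone called a gene of this list.

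Mesenchymal genes were read because loss of endothelial identity can come with their gain. Of 15 genes, 12 were tested, with 1 higher and 2 lower on silencing without cytokine, 2 and 2 with TNF, 1 and 3 with IFN and 1 and 3 with TNF + IFN. Acta2, smooth muscle actin, rose without cytokine from 15.0 ± 8.08 CPM to 107 ± 62.4 CPM (2.83 ± 0.54, edgeR adjusted p = 0.000434). Vim, vimentin, was lower in all 4 states, for example under IFN (−1.05 ± 0.22, edgeR adjusted p = 0.00104), the E-box repressor Zeb2 under TNF (−0.91 ± 0.17, edgeR adjusted p = 0.000337) and the collagen Col3a1 without cytokine (20.7 ± 6.15 CPM against 60.1 ± 19.1, −1.54 ± 0.29, edgeR adjusted p = 0.000417). Col3a1 was higher in si-dnmt under TNF + IFN (1.60 ± 0.48, edgeR adjusted p = 0.0199) and Col1a1 under TNF (3.38 ± 1.22, edgeR adjusted p = 0.0490), at 1.28 ± 0.283 CPM for Col3a1 and 0.991 ± 0.915 CPM for Col1a1 in si-dnmt. With TNF, Zeb1 and Zeb2 were called higher and Col3a1 lower under both siRNAs. IFN called only Col3a1, as lower, under both siRNAs. With TNF + IFN, Zeb1 and Zeb2 were again higher and Col3a1 lower under both siRNAs. There, Acta2 was also higher and Col1a1 and S100a4 lower in si-control, and Vim, Fn1 and Snai2 were lower in si-dnmt. No shared direction ran through the list.

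Several defining markers of other cells were at or near 0, and others were not. The leukocyte genes Ptprc, Adgre1, Cd3e and Itgam, the epithelial genes Epcam, Cdh1 and Sftpc, the fibroblast genes Lum, Tcf21 and Dpt and the pericyte genes Rgs5, Cspg4 and Des did not exceed 0.247 CPM in any library. The fibroblast genes Dcn and Col3a1 reached 53.8 and 78.0 CPM, and Pdgfra, Notch3 and Pdgfrb reached 3.14, 2.71 and 2.36 CPM. Dcn was called higher with TNF and with TNF + IFN under both siRNAs, Pdgfra with TNF and Fap with TNF + IFN in si-control, and Col3a1 lower with every cytokine treatment, and their part in the cytokine results was not tested. The 10 leukocyte genes summed to 195 to 232 CPM in si-control and 146 to 193 CPM in si-dnmt without cytokine, mostly Cd68 and Lyz2. Of 4 tested, 1 was higher on silencing in all 4 states, Coro1a (1.26 ± 0.16 under TNF, edgeR adjusted p = 1.22e-06). The 10 pericyte and smooth muscle genes summed to 8.16 to 28.3 CPM in si-control and 40.4 to 186 CPM in si-dnmt without cytokine, with 4 tested and 2 called higher, Acta2 and Myh11 (3.13 ± 0.81, edgeR adjusted p = 0.00655). In si-control and si-dnmt, the sum ran from 9.94 to 29.6 and from 67.0 to 145 CPM with TNF, from 21.0 to 70.7 and from 84.7 to 232 CPM with IFN, and from 18.8 to 65.5 and from 59.6 to 135 CPM with TNF + IFN, and Acta2 was also called higher with TNF and with IFN. The 10 fibroblast genes summed to 43.5 to 80.9 CPM in si-control and 18.3 to 34.8 CPM in si-dnmt without cytokine, mostly Col3a1 (60.1 ± 19.1 and 20.7 ± 6.15 CPM). The 10 epithelial genes summed to 6.46 to 28.1 CPM over all libraries. In the si-dnmt libraries without cytokine, the pericyte sum (mostly Acta2) was higher, and the leukocyte sum and the fibroblast sum (mostly Col3a1) were lower. Aqp1, Btnl9 and Ets1 were lower in the same libraries. The pericyte sum was also higher, without overlap, in the TNF and IFN states in which Aqp1 and Ets1 were lower, and the part of these sums in the silencing results was not tested. Cldn3, an epithelial claudin, was lower on silencing under TNF + IFN (−0.78 ± 0.27, edgeR adjusted p = 0.0459).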

How the data were processed

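RNA sequencing of 32 libraries was deposited as gene counts per library and as a merged count table, and the counts in the 2 agreed in every cell. Per the labels and the study's methods, the authors trimmed reads with cutadapt 4.9, checked them with FastQC 0.12.1 and MultiQC 1.27.1 and counted them with featureCounts. Which aligner, genome build and strand setting applied is not given in the sources used here. Without a known strand, reads of Cd34, Ecscr, Egfl7, Eng, Sox17, Lyl1, Nr2f2 and Prox1 cannot be told from genes whose exons overlap theirs on the other strand.

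Groups came from the labels. Genes were kept with filterByExpr of edgeR 4.0.16 in R 4.3.3 (minimum count 10), which left 15254, and 1 quasi-likelihood fit over all 8 groups with TMM factors (0.88 to 1.09) gave every contrast with 24 residual degrees of freedom. P-values were adjusted over all genes tested. Totals had a median of 20859668 counts, and count intervals and floors cover counting error only. Lengths are exon unions of GENCODE M21.

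Same-numbered libraries of different groups deviated together in every pair (lowest correlation 0.297). Libraries 1 with 2 and 3 with 4 did so as well (0.209 to 0.564). Median correlations were alike for same-numbered libraries (0.411 to 0.415), 1 with 2 (0.402) and 3 with 4 (0.414). They therefore do not tell pairing by replicate number from a split into these sets. Deviations from a group's mean cancel within the group, so the negative correlations between the sets (−0.590 to −0.239) follow from the others. The blocked fit is given beside the other because libraries of a group differed in this shared way. The alternatives were DESeq2 1.42.0, RLE factors, no low-count filter, the block, each replicate set alone and leaving out each library. The steps were tested on simulated data. The members and gene lists were chosen with earlier results of these data known. Library values are given for Cdh5, Pecam1, Kdr and Aqp1 and, in each contrast between 2 groups, for the 3 called members that rose most and the 3 that fell most. Other members were named by role after their values were seen. Genes of the other lists were the 3 largest called rises and falls per list in the silencing contrasts.

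Promoters were matched by symbol in RefSeq, with no entry for Aplnr, Plvap, Pecam1, Sox17, Lyve1, Cdh5, Esam, Ets1, Angpt2, Cd93, Sox18, Ecscr, S1pr1, Mmrn2, Ptprb, Sox7 and Fli1.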

Additional observations from a re-analysis of the deposited data

Results flagged for a closer look

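In 128 groups of 4 libraries of the 16 members given library by library, 6 had 1 library apart from the other 3 by Dixon's criterion at its 95% critical value, and chance gives about 1 in 20 groups. Emcn was high at 832 CPM in si-control + TNF + IFN replicate 2. Ets1 was high in the same library at 174.7 CPM. Ly6c1 was high in si-control replicate 2 at 104.1 CPM. Tal1 was high at 63.95 CPM in si-control + TNF + IFN replicate 1 and at 76.68 CPM in si-dnmt + IFN replicate 4, and low at 55.57 CPM in si-dnmt + TNF replicate 4.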

How the results depend on the processing

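Counts are of members called in either direction. With the replicate block, the silencing counts went from 4 to 23 without cytokine, 6 to 17 with TNF, 4 to 16 with IFN and 3 to 15 with TNF + IFN. The block moved TNF from 18 to 31, and IFN from 5 to 18, in si-control, and TNF from 15 to 30, and IFN from 3 to 11, in si-dnmt. It moved the TNF + IFN interaction from 0 to 3, and no call of the fit without the block was lost under it. With replicates 1 and 2 alone, silencing counts were 19, 24, 20 and 14, those of TNF, IFN and TNF + IFN were 30, 26 and 33 in si-control and 29, 17 and 27 in si-dnmt, and the interactions 3, 0 and 5. With replicates 3 and 4 alone they were 28, 17, 26 and 19, then 36, 19 and 35, then 31, 12 and 31, and 8, 3 and 11. Without 1 library, silencing counts ran from 4 to 7, 3 to 7, 3 to 4 and 2 to 4, those of the cytokines from 11 to 20, 3 to 6 and 24 to 26 in si-control and 8 to 16, 3 to 3 and 18 to 23 in si-dnmt, and the interactions stayed at 0. The largest moves were 7 without si-dnmt replicate 1 and 3 without si-dnmt + TNF replicate 3 in the silencing contrasts without cytokine and with TNF. They were 11 without si-control + TNF replicate 3 for TNF in si-control, and 8 and 9 without si-dnmt replicates 1 and 2 for TNF in si-dnmt. For IFN in si-control the count was 3 without any 1 of si-control replicates 1 and 2 and si-control + IFN replicates 3 and 4. The silencing count with TNF + IFN was 2 with no low-count filter. Calls over all genes moved as well. For silencing without cytokine, the fit without the block called 2816 of 15254 genes. Replicates 1 and 2 alone called 3674 of 15366, and replicates 3 and 4 alone 5543 of 15184. TNF + IFN in si-control called 6889, 7548 and 7822 genes in the same fits, and the TNF + IFN interaction 81, 747 and 1795. Leaving out 1 library gave 1990 to 2638 genes for silencing without cytokine. DESeq2 and RLE factors kept all 66 fold changes of the named members on their side of the threshold, and leaving out 1 library lost 37 of 528, each given in the report. None of these 66 changed direction under an alternative, while other silencing fold changes, such as that of Klf2 under TNF + IFN, had opposite signs in the 2 replicate sets. Aqp1, Btnl9 and Prox1 under TNF + IFN and Car4 and Aplnr are limited by depth.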
